A study of Mus musculus with 6 samples.

Results

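Voltage-gated sodium, calcium and HCN channels and their ankyrin anchors were followed in primary hippocampal cells of mouse embryos after knockdown of Diras2, a small GTPase of the Ras family that is found in brain. Members were the genes whose symbol names a sodium channel alpha or beta subunit, a calcium channel alpha1, beta or alpha2delta subunit, an HCN channel or an ankyrin. A probe set counted if the array annotation gave it exactly 1 gene symbol, and the brightest of a gene's probe sets was used. This gave 34 members among the 22180 genes tested. Of the 39 RefSeq genes whose symbol follows the rule the other 5 were not analysed here. They were 8 sodium channel alpha and 3 beta subunits, 10 calcium channel alpha1, 4 alpha2delta and 3 beta subunits, 3 HCN channels and 3 ankyrins.

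The tested cells were 3 samples that received an AAV1/2 vector with a Diras2 knockdown construct, and they were set against 3 samples that received a scrambled control. All 6 came from hippocampi dissected on embryonic day 18, were infected 7 days after plating and gave RNA 7 days after infection. Each sample was read on 1 Affymetrix array. Values are log2 expression levels after RMA, which corrects background, equalises the arrays and sums up the probes of a probe set. A difference of 1 is thus a doubling, and levels of different genes are not compared because probes differ in brightness. The labels call the samples biological replicates but do not say whether cultures or litters were separate, so the p-values speak of the spread among these arrays only. A single knockdown construct was used, and effects of Diras2 loss and other effects of that construct cannot be told apart. The promoter that drives the construct and the share of infected cells are not given in the sources used here.

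Sodium channels carry the fast upstroke of the action potential. Their alpha subunit forms the pore and the beta subunits, single-pass proteins with an immunoglobulin-like domain, alter gating and surface delivery. Calcium channels open on depolarisation through the alpha1 pore, while beta and alpha2delta subunits bring the pore to the membrane, and the calcium that enters drives transmitter release and gene regulation. HCN channels open on hyperpolarisation and set the resting excitability of dendrites, and ankyrins tie sodium channels to the spectrin skeleton, most densely at the axon initial segment. In rodent brain Scn3a and Scn3b are high in the embryo and decline after birth, whereas Scn1a, Scn8a and Scn2b become prominent postnatally.

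Diras2 was lower in every knockdown array. It read 7.17, 6.23 and 6.08 in knockdown samples and 10.17, 10.17 and 9.76 in controls, which is -3.54 on the log2 scale (SE 0.27; adjusted p by limma 0.00063). An exact two-sided permutation test of Diras2 alone gave 0.1, the smallest p that 3 against 3 arrays can give. Of the markers of the labelled cells, 0 of 8 pan-neuronal and 0 of 5 excitatory genes had a mean level below 5, with ranges of 6.43 to 12.9 and 6.17 to 10.6. Levels below 5 were found for 1 of 7 astrocyte markers, 1 of 5 of oligodendrocyte precursors, 1 of 7 of fibroblasts and pericytes and 0 of 7 of inhibitory neurons. They were found for 3 of 4 oligodendrocyte, 4 of 6 microglial, 4 of 5 endothelial and 6 of 9 muscle markers. The same held for 3 of 4 markers of dividing cells and 2 of 3 of sensory neurons. These levels come from different probe sets without detection calls, so they describe the cultures and do not measure the share of a cell type. Array medians over the genes tested lay between 5 and 5.08. RNA integrity numbers were 9, 9.3 and 9.2 in knockdown samples and 9.2, 9 and 8.8 in controls.

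At an adjusted p under 0.05 by limma, 3 of the 34 channel and ankyrin genes rose (8.82%, against 4.17% of all genes tested), 1 fell (2.94%, against 3.64%) and 30 were not called. Cacna1d, Scn2b and Cacna2d1 were the genes that rose, and Scn3a was the one that fell. The called share was 11.8%, against 7.80% of all genes tested. Since dim genes are seldom called, the fairer setting is genes with a mean level of at least 5, where 4 of 26 members (15.4%) were called against 14.5% of all such genes. By direction 3 of the 26 rose and 1 fell, where 7.78% and 6.67% of all such genes did. The members as a group were therefore called about as often as other genes of that brightness. Knockdown and control values did not overlap for 11 members, 6 of them above and 5 below, which is 32.4% of the members against 25.5% of all genes tested (13.4% above and 12.1% below). At a mean level of at least 5 the shares were 38.5% of members and 38.5% of all genes (21.1% above and 17.4% below). The median log2 difference of the members was 0.02, and the median size of the difference was 0.21, against 0.14 over all genes. At a mean level of at least 5 it was 0.24 for the members and 0.20 for all such genes. Because the RNA is from mixed cells, fewer cells of a type and less RNA per cell cannot be told apart in any of these values.

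**Figure D1:**
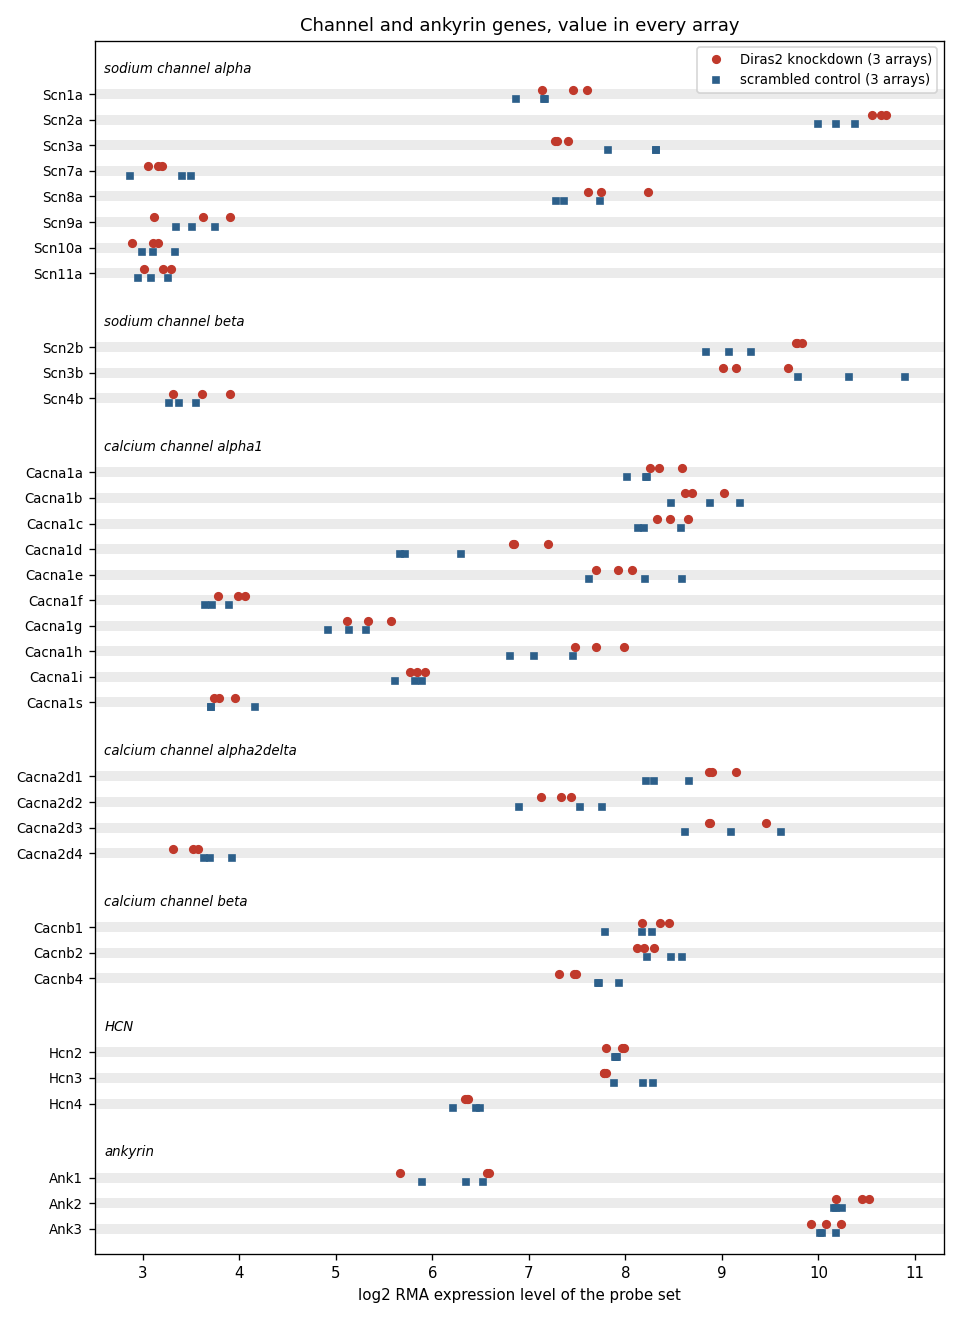
Log2 RMA expression level of each of the 34 genes in every array, grouped by subunit family, with knockdown arrays as circles and control arrays as squares. Cacna1d, Scn2b and Cacna2d1 show all circles right of all squares, Scn3a and Scn3b all circles left of them, and 8 genes lie below 5 in both groups.

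The windows of 250 bases before the annotated transcript starts of the 3 genes that rose are shown because these genes moved the same way. They were taken from RefSeq on GRCm38.p6 and are written 5′ to 3′. Cacna1d has 2 annotated starts. Capitals mark matches on either strand to TATAAA (the TATA box), GGGCGG (the GC box bound by Sp1), TGACG (the core of a cAMP response element), TGANTCA (the AP-1 site), and CAGCACC and GGACAGC (the left and right parts of the RE1 element bound by the repressor Rest), and matches can overlap each other.
Cacna1d first start, chr14:30491157-30491406, minus strand: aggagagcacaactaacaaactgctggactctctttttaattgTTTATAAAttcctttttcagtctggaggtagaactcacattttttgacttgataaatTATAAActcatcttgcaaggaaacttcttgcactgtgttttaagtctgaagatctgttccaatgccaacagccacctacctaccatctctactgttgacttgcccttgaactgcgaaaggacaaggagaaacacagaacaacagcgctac
Cacna1d second start, chr14:30353487-30353736, minus strand: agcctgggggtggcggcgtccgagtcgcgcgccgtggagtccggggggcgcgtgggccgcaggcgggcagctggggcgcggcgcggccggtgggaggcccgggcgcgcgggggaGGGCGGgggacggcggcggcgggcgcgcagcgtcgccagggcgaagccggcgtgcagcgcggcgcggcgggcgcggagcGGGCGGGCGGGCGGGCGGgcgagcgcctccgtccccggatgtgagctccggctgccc
Scn2b, chr9:45117626-45117875, plus strand: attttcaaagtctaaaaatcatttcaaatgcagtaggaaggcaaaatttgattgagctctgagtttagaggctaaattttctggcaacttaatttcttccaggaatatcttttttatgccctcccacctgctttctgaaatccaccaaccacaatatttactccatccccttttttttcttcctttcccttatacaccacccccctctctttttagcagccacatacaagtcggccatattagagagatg
Cacna2d1, chr5:15934441-15934690, plus strand: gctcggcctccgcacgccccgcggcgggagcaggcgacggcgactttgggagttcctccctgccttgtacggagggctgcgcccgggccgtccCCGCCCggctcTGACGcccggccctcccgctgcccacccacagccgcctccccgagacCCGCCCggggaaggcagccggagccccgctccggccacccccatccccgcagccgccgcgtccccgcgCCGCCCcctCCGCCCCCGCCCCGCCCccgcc
The windows had little in common. GC content was 39.6% at the first Cacna1d start, 86.4% at the second, 38.4% at Scn2b and 82.4% at Cacna2d1, against a median of 52.4% over 32851 promoter windows. The GC box had 5 matches at the second Cacna1d start and 6 at Cacna2d1 and none in the other windows shown, and 32.7% of all windows hold it. The TATA box had 3 matches at the first Cacna1d start, with 12.4% of all windows holding it. The cAMP response core had 1 match, at Cacna2d1, with 17.8% of all windows holding it. Matches to the AP-1 site (6.75% of all windows) and to the parts of RE1 (5.73% and 5.28%) were not present in these letters, which says nothing about binding elsewhere. Over the 37 windows of 25 member genes, 14 held the GC box (37.8%). Scn3a and Scn3b are named only.

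Of the 8 sodium channel alpha subunits measured Scn3a fell and 7 did not pass, among them Scn1a, Scn2a and Scn8a with differences above 0. Scn3a read 7.40, 7.29 and 7.27 in knockdown samples and 8.32, 8.32 and 7.82 in controls. Every knockdown value was below every control value, and the knockdown arrays were close together (SD 0.07). The log2 difference was -0.83 (SE 0.15), or 1.78-fold lower, with an adjusted p by limma of 0.0140. A fit that includes RNA integrity kept the call (0.0312). Leaving out knockdown replicate 2 (0.0651), knockdown replicate 3 (0.0608) or control replicate 2 (0.0686) ended it.

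Scn2a, the alpha subunit that dominates axons of young excitatory neurons, sits next to Scn3a in a run of 5 alpha subunit genes on 1 chromosome. It read 10.56, 10.70 and 10.65 in knockdown samples and 10.38, 10.18 and 10 in controls. The groups did not overlap, and the log2 difference of 0.45 (95% interval 0.17 to 0.73) had an adjusted p by limma of 0.0622. It passed without control replicate 1 (0.0364). It also passed among genes of mean level at least 5 (0.0361), with an intensity trend (0.0337) and with array weights (0.0228). Scn2a did not pass with any other array left out (up to 0.194), with the replicate number as a block (0.0591) or in a fit that includes RNA integrity.

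Scn1a, the alpha subunit of fast-spiking interneurons, read 7.14, 7.60 and 7.46 in knockdown samples and 6.87, 7.17 and 7.16 in controls. The lowest knockdown value lay just under the highest controls, and the log2 difference was 0.33 with an adjusted p by limma of 0.245. Scn8a, the alpha subunit of the mature initial segment and of nodes of Ranvier, read 8.23, 7.61 and 7.75 in knockdown samples and 7.74, 7.36 and 7.28 in controls. These values overlapped and differed by 0.40 on average (adjusted p by limma 0.271). No label says that arrays of the same number belong together, and their pairing here was read from these same data. Within each pair of same-numbered arrays Scn8a was higher in the knockdown, by 0.49, 0.25 and 0.47, and with the replicate number as a block it passed the test (0.0488). Scn1a was likewise higher in 3 of 3 pairs, by 0.27, 0.43 and 0.30, with an adjusted p of 0.0728 under the block.

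The remaining alpha subunits were dim. Scn7a, Scn9a, Scn10a and Scn11a, which serve mainly glia or peripheral sensory neurons, had log2 differences from -0.12 to 0.07, and no array read above 3.90 for any of them. Changes in genes this close to the lowest values of the arrays may not be detectable.

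The 3 sodium channel beta subunits measured lay on both sides of 0. Scn2b, which is bound to alpha subunits by a disulfide bridge, read 9.78, 9.83 and 9.77 in knockdown samples and 9.30, 9.07 and 8.84 in controls. The knockdown arrays were nearly identical (SD 0.03) and all lay above the controls (SD 0.23). Scn2b rose by 0.72 on the log2 scale (SE 0.13), or 1.65-fold, with an adjusted p by limma of 0.0137. Leaving out knockdown replicate 2 (0.0646), knockdown replicate 3 (0.0519) or control replicate 2 (0.0639) ended the call, as did a fit that includes RNA integrity (0.0554).

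Scn3b, a beta subunit that binds alpha subunits without a covalent bridge, read 9.68, 9.15 and 9.01 in knockdown samples and 10.90, 10.32 and 9.79 in controls. The groups did not overlap, although the highest knockdown value and the lowest control value were only slightly apart. The log2 difference of -1.06 (95% interval -1.70 to -0.41) was the lowest of the 34 genes, with an adjusted p by limma of 0.0612. Replicate 1 was highest in both groups, and the differences within pairs were -1.22, -1.17 and -0.78. With the replicate block the adjusted p was 0.00385. Scn3b also passed without control replicate 3 (0.0210), with quantile normalisation (0.0445), with an intensity trend (0.0485), with array weights (0.0153) and among genes of mean level at least 5 (0.0461). It did not pass with any other array left out (up to 0.194) or in a fit that includes RNA integrity. Scn4b, the beta subunit of resurgent current, was dim, with a difference of 0.21 and an adjusted p of 0.533.

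**Figure D2:**
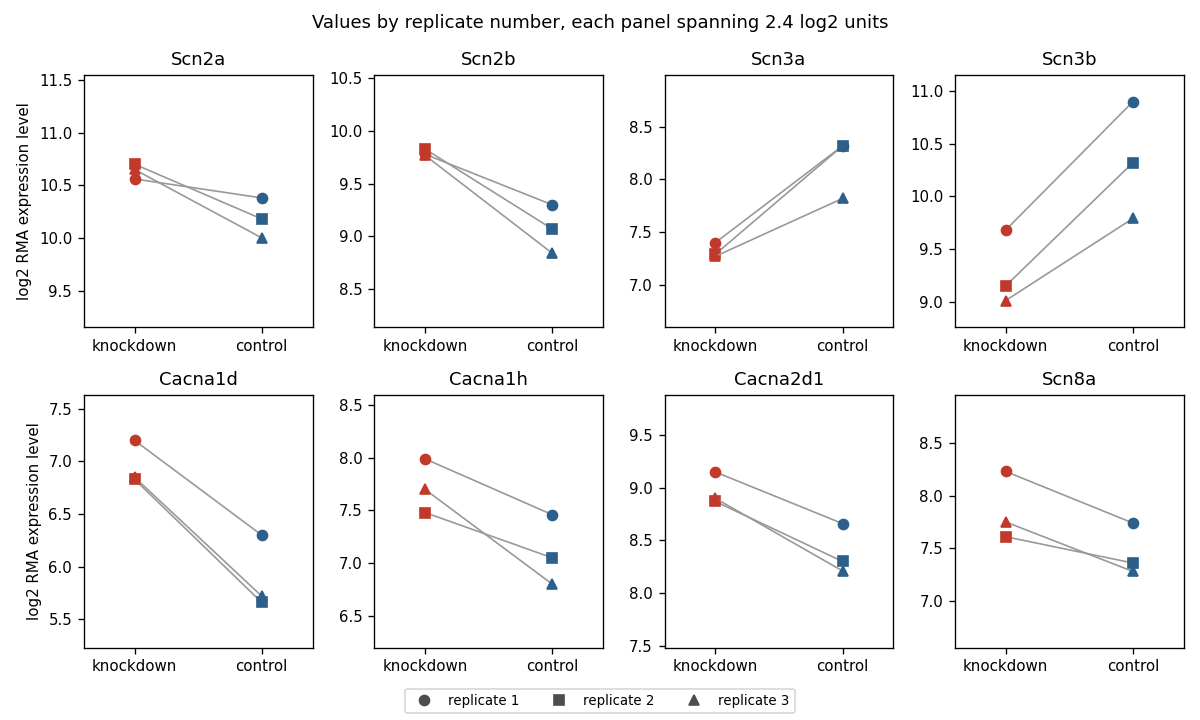
Log2 RMA expression level of 8 genes by replicate number, knockdown left and control right, with a line joining arrays of the same number and each panel spanning the same width of scale. Scn3a and Scn3b are lower in the knockdown in 3 of 3 pairs and the other 6 genes higher in 3 of 3, and control replicates 1 and 2 of Scn3a coincide at 8.32.

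Of the 10 calcium channel alpha1 subunits Cacna1d rose and 9 did not pass. This L-type pore opens at more negative potentials than its relative Cacna1c and links depolarisation to gene expression. Cacna1d read 7.20, 6.83 and 6.85 in knockdown samples and 6.30, 5.66 and 5.72 in controls. All knockdown values lay above all controls, and replicate 1 was highest in both groups. It rose by 1.07 on the log2 scale (SE 0.19, 95% interval 0.63 to 1.5), or 2.09-fold, with an adjusted p by limma of 0.0132. Leaving out control replicate 2 ended the call (0.0639), and so did a fit that includes RNA integrity (0.0671). It held without each of the other 5 arrays.

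Cacna1c, the other L-type pore of neurons, read 8.65, 8.33 and 8.46 in knockdown samples and 8.58, 8.19 and 8.13 in controls. Its groups overlapped and its difference of 0.18 (95% interval -0.16 to 0.52) had an adjusted p by limma of 0.573. The intervals of Cacna1d and Cacna1c did not overlap, and the difference between them was not tested.

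Cacna1h, a T-type pore that opens near rest, read 7.99, 7.48 and 7.70 in knockdown samples and 7.46, 7.05 and 6.80 in controls. The groups were just separate, and the log2 difference of 0.62 had an adjusted p by limma of 0.10. Differences within pairs were 0.53, 0.43 and 0.90, and with the replicate block the gene passed (0.0220). It also passed without control replicate 1 (0.0351) and with array weights (0.0470). Cacna1h did not pass with any other array left out (up to 0.259), with all probe sets tested (0.197) or in a fit that includes RNA integrity (0.295). The other T-type pores did not pass, with Cacna1g at 0.21 (adjusted p 0.498) and Cacna1i at 0.07 (0.797).

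The presynaptic pores that trigger transmitter release did not pass. Cacna1a, of the P/Q-type, read 8.35, 8.26 and 8.59 in knockdown samples and 8.02, 8.21 and 8.22 in controls. These values did not overlap by a narrow margin, and the difference of 0.25 had an adjusted p by limma of 0.292. Cacna1b, of the N-type, had a difference of -0.07 (0.889), and Cacna1e, of the R-type, one of -0.24 (0.641) with control values spread from 7.62 to 8.59. The retinal pore Cacna1f and the skeletal muscle pore Cacna1s were dim, at no more than 4.16 in any array.

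Among the auxiliary subunits Cacna2d1 rose. This alpha2delta subunit carries calcium channels to the synapse, binds gabapentin and is a receptor for thrombospondin in synapse formation. Cacna2d1 read 9.15, 8.87 and 8.90 in knockdown samples and 8.66, 8.30 and 8.21 in controls. The groups did not overlap, and differences within pairs were 0.49, 0.57 and 0.69. It rose by 0.58 on the log2 scale (SE 0.14), or 1.5-fold, with an adjusted p by limma of 0.0477, just inside the threshold, and of 0.0128 with the replicate block. The call was lost without every array but control replicate 1, at 0.130, 0.108 and 0.112 without knockdown replicates 1, 2 and 3 and at 0.173 and 0.118 without control replicates 2 and 3. It was also lost with median centring (0.0573), with all probe sets tested (0.109) and in a fit that includes RNA integrity (0.182).

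Cacna2d2 and Cacna2d3, the other alpha2delta subunits well expressed here, had differences of -0.10 (adjusted p 0.854) and -0.04 (0.961). Cacna2d3 read 9.46, 8.87 and 8.88 in knockdown samples and 9.61, 9.09 and 8.62 in controls, with replicate 1 high in both groups. Cacna2d4 was dim, at 3.57, 3.52 and 3.31 in knockdown samples and 3.63, 3.69 and 3.92 in controls, and although the groups did not overlap its difference of -0.28 had an adjusted p of 0.237.

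The 3 cytoplasmic beta subunits measured did not pass. Such subunits mask a retention signal of the alpha1 pore and tune its gating. Cacnb4, a beta subunit whose loss causes ataxia and seizures in mice, read 7.49, 7.47 and 7.31 in knockdown samples and 7.73, 7.93 and 7.72 in controls. The groups did not overlap, with a difference of -0.37 (95% interval -0.62 to -0.12) and an adjusted p by limma of 0.0833. It passed among genes of mean level at least 5 (0.0434) and with array weights (0.0275). It did not pass with any array left out (0.110 to 0.259), with all probe sets tested (0.162) or in a fit that includes RNA integrity (0.236). A second, dimmer probe set of Cacnb4 had a difference of -0.44. Cacnb2 had -0.22 (0.362) and a second, dim probe set at -0.32, and Cacnb1 had 0.25 (0.412).

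Of the 3 HCN channels measured none passed, and Hcn2 and Hcn4 had differences near 0. Hcn2 read 7.96, 7.80 and 7.99 in knockdown samples and 7.90, 7.89 and 7.91 in controls, and its difference of 0.02 had a 95% interval of -0.21 to 0.24. Hcn4, the slow isoform best known from the cardiac pacemaker, had a difference of -0.03 with an interval of -0.27 to 0.22. Hcn3 read 7.80, 7.78 and 7.78 in knockdown samples and 7.88, 8.18 and 8.29 in controls. Its groups did not overlap, with a difference of -0.33 and an adjusted p by limma of 0.168.

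Ankyrins did not pass either. Ank3, which encodes ankyrin-G, the organiser of the axon initial segment, read 10.08, 9.92 and 10.23 in knockdown samples and 10.02, 10.04 and 10.18 in controls, a difference of 0.00 with a 95% interval of -0.26 to 0.26. Ank2, which encodes ankyrin-B of the axon shaft, had a difference of 0.19 (adjusted p 0.428). Ank1 spread widely within groups, at 5.66, 6.59 and 6.57 in knockdown samples and 5.89, 6.35 and 6.52 in controls, with a difference of 0.02 (0.981), and its second probe set had -0.05.

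**Figure D3:**
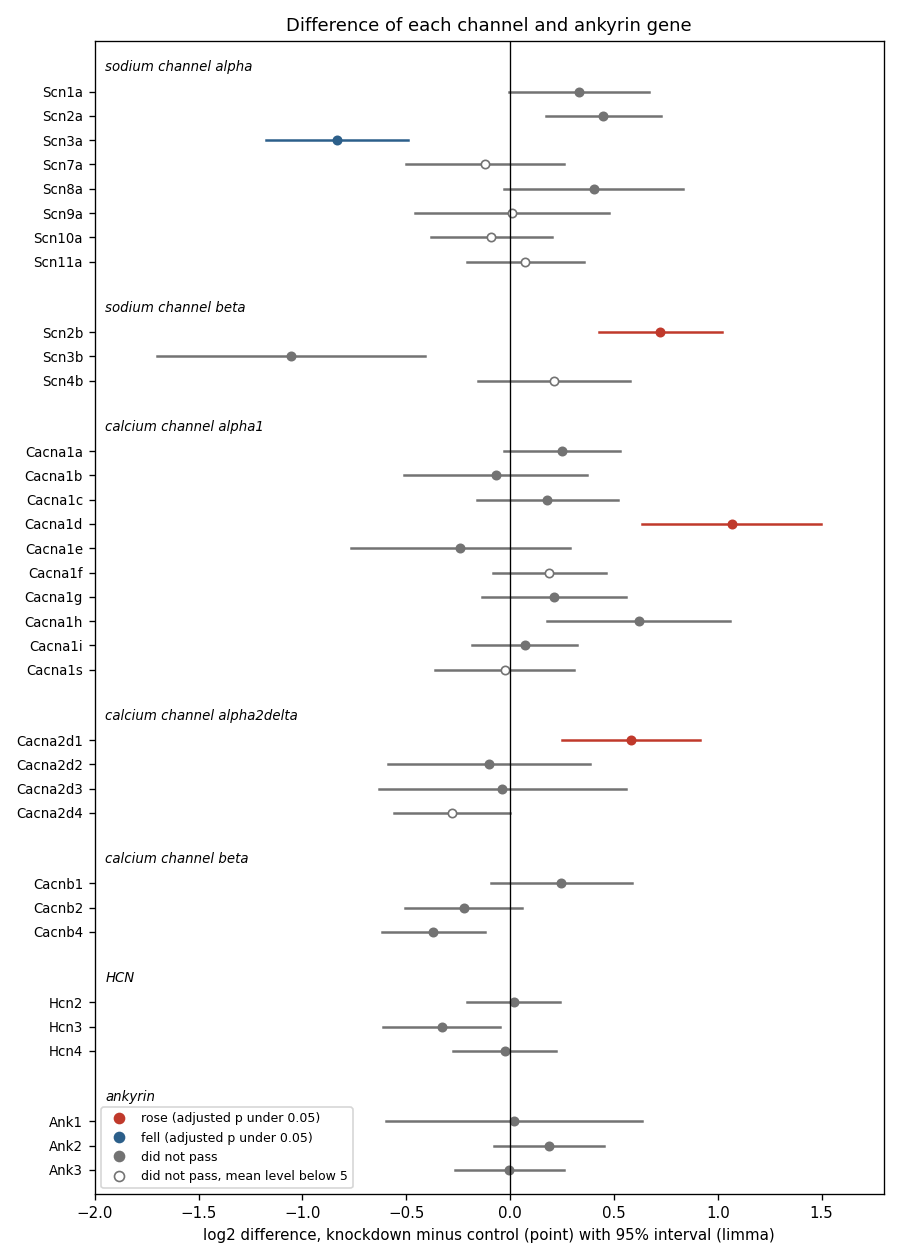
Log2 difference, knockdown minus control, of each of the 34 genes with its 95% limma interval, in red where the gene rose, in blue where it fell and in grey where it did not pass, with open points for a mean level below 5. Cacna1d at 1.07, Scn2b at 0.72 and Cacna2d1 at 0.58 stand right of 0 and Scn3a at -0.83 left of it, while Scn3b at -1.06 has a wider interval and did not pass.

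With the replicate number as a block, 5 members rose and 2 fell, against 3 and 1 without it. Cacna1h, Scn8a and Scn3b were the additions. That is 20.6% of the members, and 11.7% of all genes were called in that fit (6.05% rose and 5.64% fell). With quantile normalisation 3 members rose and 2 fell, Scn3b being the addition, and over all genes 895 rose and 864 fell. Without control replicate 2, 0 members were called in either direction, while 5 rose and 1 fell without control replicate 1. Calls over all genes also differed between these fits. Without control replicate 2, 383 genes rose and 306 fell, and without control replicate 1, 800 and 687, against 924 and 807 with all arrays.

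Genes that work with the channels changed in several places. Of 62 measured genes in 6 lists 4 rose, 9 fell and 49 did not pass, a called share of 21.0% against 7.80% of all genes tested. Among those with a mean level of at least 5 it was 13 of 52, against 14.5% of all such genes. Of the 4 intracellular fibroblast growth factor homologues, which bind the tail of sodium channel alpha subunits, 1 rose, 1 fell and 2 did not pass (50.0% called). Fgf11 read 6.94, 7.07 and 7.15 in knockdown samples and 7.67, 7.97 and 8.13 in controls, 1.83-fold lower with an adjusted p by limma of 0.00798. Fgf14, which localises sodium channels at the initial segment, read 8.29, 8.08 and 8.26 in knockdown samples and 7.40, 7.52 and 7.83 in controls, 1.54-fold higher (0.0281). Neither pair of groups overlapped, and the same was true of 25.5% of all genes tested. Of 11 initial segment genes 1 rose, 1 fell and 9 did not pass (18.2% called). Kcnq3, a subunit of the M-current potassium channel held there by ankyrin-G, read 8.33, 8.15 and 7.97 in knockdown samples and 9.64, 9.15 and 8.73 in controls, 2.03-fold lower (0.0274). Csnk2a1, a catalytic subunit of casein kinase 2, which strengthens binding of sodium channels to ankyrin-G, rose 1.39-fold (0.0234). The adhesion genes Nrcam at -0.53 (0.0671) and Cntn2 at 0.77 (0.0596) did not pass, and with the replicate block both did (0.0148 and 0.0151). Of the 13 calls in these lists, leaving out control replicate 2 ended 12 and control replicates 1 and 3 ended 4 and 7. Leaving out knockdown replicate 1 ended 10, and knockdown replicates 2 and 3 ended 11 each (adjusted p 0.0514 to 0.168). Fgf11 kept its call without each array in turn (at most 0.0465). A fit that includes RNA integrity kept 3 of the 13 calls, Fgf11 (0.0440), Fgf14 (0.0207) and Kcnq3 (0.0357), and ended 10, Csnk2a1 (0.107) among them.

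Of 20 measured calcium channel regulators 5 fell, 0 rose and 15 did not pass, and the median log2 difference was -0.14. Rem2, a Ras-related GTPase of the RGK group that inhibits calcium channels, read 6.51, 7.13 and 6.65 in knockdown samples and 7.32, 7.83 and 7.55 in controls, 1.75-fold lower with an adjusted p by limma of 0.0403. Stac2, an adaptor that slows inactivation of L-type channels, was 1.88-fold lower (0.0383). The other 3 were Cacng5, Cacng2 and Cacng7, named for a calcium channel gamma subunit but known in brain mainly as auxiliary subunits of AMPA receptors. They were 2.03-fold (0.0446), 1.58-fold (0.0166) and 1.47-fold (0.0463) lower. None of the 5 genes had overlapping groups, which adds no support because they were called from these same values. Groups did not overlap for 25.5% of all genes tested and 38.5% of those with a mean level of at least 5. Without control replicate 2 these 5 calls had adjusted p-values of 0.0713 to 0.163. Cacng2 was also lost without knockdown replicates 2 and 3, Rem2 without knockdown replicates 1 and 3 and control replicate 3, and Cacng5 without knockdown replicates 1 and 2 and control replicate 3. Cacng7 and Stac2 were kept without control replicate 1 and in no other of these fits. A fit that includes RNA integrity ended all 5 calls (0.0841 to 0.169).

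Of 12 presynaptic tethers of calcium channels 1 fell (8.33% called), and 2 fell with the replicate block. Over all genes tested 7.80% were called without the block, and 14.5% of those with a mean level of at least 5. The tether called without the block was the SNARE protein Snap25, 1.42-fold lower with an adjusted p by limma of 0.0471. Rims1, the scaffold that docks the channels, had -0.22 (0.359). Of 7 HCN channel partners 1 fell (14.3% called), Nedd4l, a ubiquitin ligase that also acts on sodium channels, 1.45-fold (0.0323). Pex5l, the auxiliary subunit of HCN channels, had a difference of -0.34 (0.361). Of 8 transcriptional regulators of neuronal channel genes 2 rose, the activity-linked factor Mef2a 1.62-fold (0.0262) and Rcor1, a partner of Rest, 1.44-fold (0.0383). Rest itself had a difference of -0.02 (0.964). Snap25 and Nedd4l kept their calls without control replicate 3 alone and Mef2a without control replicate 1 alone, and Rcor1 was lost without each array in turn (0.0672 to 0.0999). These 4 calls also ended in a fit that includes RNA integrity (0.0573 to 0.117).

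**Figure D4:**
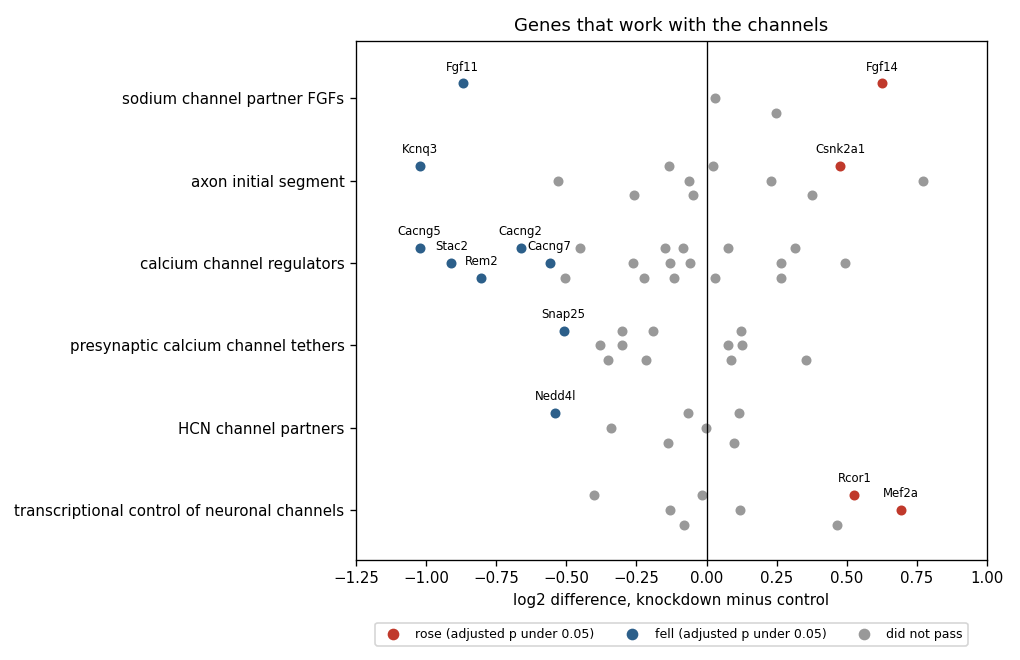
Log2 difference, knockdown minus control, of the measured genes of 6 lists of channel partners, each point a gene, red where it rose, blue where it fell and grey where it did not pass. Calcium channel regulators hold 5 genes that fell and 0 that rose, and Fgf11 and Fgf14 lie on opposite sides of 0.

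Markers of cell types moved beside these results in places, while the RNA integrity numbers of the 2 groups overlapped (9 to 9.3 in knockdown samples and 8.8 to 9.2 in controls). Of 4 markers of dividing cells 3 rose, Mki67, Top2a and Cdk1, and their summed linear signal was 112 to 221 in knockdown samples and 64.0 to 75.6 in controls. Of 7 inhibitory neuron markers 1 fell, Lhx6, with a summed signal of 3236 to 6723 in knockdown samples and 5113 to 12185 in controls. Log2 differences of the 7 ran from -1.24 to 0.11. Of 8 pan-neuronal markers 1 fell, Snap25, with 19770 to 23601 in knockdown samples and 22855 to 27890 in controls, and log2 differences of the 8 ran from -0.89 to 0.39. Pdgfra, of 5 markers of oligodendrocyte precursors, rose, with a summed signal of 655 to 1528 in knockdown samples and 712 to 910 in controls. The other 4 did not pass, with Olig2 at 0.52, Sox10 at 0.23, Cspg4 at -0.05 and Olig1 at -0.19. Of 7 fibroblast and pericyte markers 1 fell, Rgs5, with 682 to 971 in knockdown samples and 678 to 1391 in controls. The other 6 did not pass. Lum had a difference of -0.74, while Col3a1 (0.30), Col1a2 (0.26), Col1a1 (0.21), Dcn (0.05) and Pdgfrb (0.03) lay above 0. Of 3 sensory neuron markers Prph rose, with a summed signal of 89.1 to 94.0 in knockdown samples and 50.6 to 64.8 in controls. The others, Trpv1 and P2rx3, had mean levels of 3.48 and 4.13 and differences of -0.04 and -0.06. Such sums are weighted to the brightest genes of a list, here Prph. Excitatory neuron, astrocyte, oligodendrocyte, microglial, endothelial and muscle lists had 0 called members by limma, with 4 of their 36 genes at an unadjusted p under 0.05. With the replicate block 4 inhibitory, 3 pan-neuronal and 2 fibroblast and pericyte markers fell, and so did the astrocyte marker Gja1 (0.0385) and the microglial marker Csf1r (0.0339). In that fit 11.7% of all genes were called, and 5.64% fell. Lhx6 and Rgs5 were called without each array in turn, Pdgfra was lost without control replicate 2 (0.0575), Prph without knockdown replicates 2 (0.0703) and 3 (0.0518), Mki67 without control replicate 2 (0.0689) and knockdown replicates 2 (0.0550) and 3 (0.0713), Cdk1 without control replicates 2 (0.113) and 3 (0.0655) and knockdown replicate 3 (0.0664), and Top2a without control replicates 2 (0.0944) and 3 (0.0551) and knockdown replicates 2 (0.0963) and 3 (0.0815). A fit that includes RNA integrity kept the calls of Lhx6, Rgs5 and Mki67 and ended those of Pdgfra (0.0514), Prph (0.0550), Top2a (0.0940), Cdk1 (0.0966) and Snap25 (0.0966). The part of these cell types in the channel values was not tested. In a fit that includes RNA integrity 0 members rose and 1, Scn3a, fell, and over all genes 402 rose and 356 fell. The log2 differences of Cacna1d and Cacna2d1 were 0.994 and 0.525 in that fit, against 1.07 and 0.58 without RNA integrity. That fit estimates an additional term from the same 6 arrays, and why calls were lost in it was not tested.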

How the data were processed

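The 6 hippocampal samples gave 100 ng of RNA each for amplification and Affymetrix arrays, per the labels' protocols. The deposited values are log2 levels per probe set, which per the submitters' processing notes the authors made by RMA with Expression Console 1.2.1.20. Probe-level intensities and detection calls were not used here, so the number of arrays sets the precision and background correction was not repeated. Of 41345 probe sets 23521 carry 1 gene symbol, 1814 several and 16010 none named here, giving 22180 genes, the brightest probe set standing for 1082 genes with several. All 34 members matched a RefSeq gene by Entrez number. No coordinates of the array are given, because the sources used here name no build for it.

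Knockdown minus control was fitted over all genes with limma 3.58.1 in R 4.3.3 (lmFit and eBayes without trend), with Benjamini-Hochberg adjustment over all genes and a threshold of 0.05. Intervals are limma's 95% intervals. The script was tested on simulated data. Members and lists were chosen with earlier results of these data known. Every member is accounted for, those called or with groups that do not overlap by their values, and of each partner list the called genes. Rims1, Pex5l, Rest, Nrcam, Cntn2 and the neuronal age genes were named after their values were seen. The older names Mrvi1 and Lrmp served for Irag1 and Irag2. Deviations from group means correlated at 0.43, 0.12 and 0.37 for same-numbered arrays and at -0.38 to 0.06 for arrays of different number. The same-numbered values were all above a bound of 0.1, so a shared number was treated as a pair. That pairing was taken from these same values and not from a label. Results of the replicate block depend on it and are no independent support. Other settings tried were a replicate block, each array left out, other scalings, filters at levels 5 and 6, variance priors, array weights, RNA integrity, other probe set rules and thresholds. Figures were drawn with matplotlib 3.10.9.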

Additional observations from a re-analysis of the deposited data

How the results depend on the processing

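No result for Diras2, Cacna1d, Scn2b, Cacna2d1 or Scn3a changed direction under any alternative, and Diras2 kept its call in all that were run. Members that rose numbered 5 with the replicate block and with array weights, and 0 in a fit that includes RNA integrity and at an adjusted p under 0.01. Members that fell numbered 2 with the replicate block, quantile normalisation and an intensity trend, 3 with array weights, with the filters at 5 and 6 and at an adjusted p under 0.1, and 0 at 0.01. Leaving out 1 array gave 0 to 5 that rose and 0 to 2 that fell. Over all genes 402 rose and 356 fell with RNA integrity, 354 and 290 at 0.01, 506 and 423 with all probe sets and 1401 and 1302 with array weights. The block gave 1341 that rose and 1252 that fell, and 1238 fell at 0.1. Quantile normalisation gave 895 and 864 and an intensity trend 1011 and 858, against 924 and 807 in the main fit. The filter at 5 left 11238 genes, of which 1173 rose and 1004 fell, and with the filter at 6 it was 1143 and 933. Leaving out 1 array gave 383 to 800 that rose and 306 to 687 that fell, where fewer samples are in the fit. The cause of these shifts, those without 1 array included, was not tested. The replicate block changed the calls of no members other than Cacna1h, Scn8a and Scn3b.

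Small differences of uncalled members changed sign under some alternatives, with no call in either direction. The log2 difference of Ank1 was -0.16 to 0.33 without 1 array, -0.0173 with RNA integrity and -0.0150 with the mean of its probe sets. That of Ank3 was -0.0800 to 0.0750 without 1 array, 0.0200 with median centring, 0.00520 with array weights and 0.0603 with RNA integrity. That of Cacna1b was -0.26 to 0.10 without 1 array. That of Cacna1i was -0.0117 to 0.13 without 1 array. That of Cacna1s was -0.10 to 0.13 without 1 array, 0.0564 with array weights and 0.0764 with RNA integrity. That of Cacna2d2 was -0.35 to 0.0817 without 1 array and 0.0754 with RNA integrity. That of Cacna2d3 was -0.28 to 0.21 without 1 array. That of Hcn2 was -0.0200 to 0.0750 without 1 array and -0.0167 with quantile normalisation. That of Hcn4 was -0.11 to 0.0267 without 1 array and 0.0501 with RNA integrity. That of Scn10a was -0.17 to 0.00500 without 1 array. That of Scn7a was -0.31 to 0.00170 without 1 array. That of Scn9a was -0.17 to 0.23 without 1 array and -0.0151 with array weights.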

Other observations

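Of genes whose levels follow neuronal age, from 2 lists chosen after the channel values were seen, some moved and most did not pass. Of 11 measured genes that are high in immature neurons 1 rose, 2 fell and 8 did not pass, a called share of 27.3% against 7.80% of all genes tested. At a mean level of at least 5 the share was 3 of 10, against 14.5% of all such genes. Grin3a, a juvenile NMDA receptor subunit, read 6.83, 6.70 and 6.89 in knockdown samples and 7.44, 7.69 and 8 in controls, 1.87-fold lower with an adjusted p by limma of 0.00981. Gabra3, a GABA receptor subunit that is high in developing cortex, was 1.91-fold lower (0.0265). Dcx, a microtubule protein of migrating neurons, went the other way and was 1.69-fold higher (0.0236).

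Of 11 measured genes that come up as neurons mature 2 rose, 1 fell and 8 did not pass, again 27.3%, and all 11 had a mean level of at least 5. Grin2a, the NMDA receptor subunit that joins synapses after birth, read 8.17, 7.83 and 8.04 in knockdown samples and 6.90, 6.73 and 6.64 in controls, 2.39-fold higher (adjusted p by limma 0.00134). Kcna1, an axonal potassium channel, was 1.74-fold higher (0.00252), and Calb1, a calcium buffer of granule cells and interneurons, was 1.91-fold lower (0.00156). The chloride transporters Slc12a5 and Slc12a2, which trade places as neurons mature, had differences of 0.28 (0.587) and 0.09 (0.747). The lists thus held called genes in both directions, with medians of 0.07 for the immature and -0.13 for the mature list. Grin2a, Kcna1 and Calb1 kept their calls without each array in turn. A fit that includes RNA integrity kept the calls of these 3 and of Grin3a (0.0346) and Gabra3 (0.0308) and ended that of Dcx (0.109). With the replicate block Sox4 (0.0141) and Nefm (0.0470) also fell. Grin3a was lost without knockdown replicate 2 (0.0534), Gabra3 without control replicates 1 (0.0560) and 2 (0.112) and knockdown replicates 1 (0.0710) and 3 (0.101), and Dcx without control replicate 2 (0.0770) and knockdown replicates 1 (0.0693), 2 (0.0699) and 3 (0.0704).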
